A study of Mus musculus with 36 samples.

Results

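Ret, Gfra1, Gfra2, Gfra3, Ntrk2, Ntrk3, Ngfr, Nrg1 and Erbb4 encode receptors, and 1 ligand, for 3 families of neuronal growth factors. They were chosen by name, as the rows carrying these 9 symbols among the 21761 genes listed in each library. Their expression was followed in mouse motor neurons, derived from embryonic stem cells and kept in medium conditioned by astrocytes with or without a SOD1 transgene. The files identify the genes as 19713 (Ret), 14585 (Gfra1), 14586 (Gfra2), 14587 (Gfra3), 18212 (Ntrk2), 18213 (Ntrk3), 18053 (Ngfr), 211323 (Nrg1) and 13869 (Erbb4).

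The stem cells came from transgenic Hlxb9-GFP1Tmj mice, in which the promoter of HB9 (the motor neuron factor Mnx1) drives eGFP, or eGFP together with CD2, and differentiated cells were collected on a magnetic column with an antibody to CD2. Conditioned medium came from astrocytes of newborn pups that were non-transgenic (NTg), over-expressed G93A mutant SOD1 (mSOD1) or over-expressed wild-type SOD1 (wtSOD1). The astrocytes were taken from spinal cord or cortex, and the labels do not say which source gave the medium of a given library. The astrocyte cultures were 95% GFAP-positive, and residual microglia were shaken off. RNA was taken after 1 or 3 days, which gives 6 groups of 6 libraries, numbered by experiment 1 to 6. All 6 groups received the same additions to the medium: CNTF at 10 ng/ml, BDNF at 1 ng/ml, glucose at 4.5 mg/ml, antibiotics and, at 0.5 ng/ml, GDNF. No group was without added GDNF or BDNF, the ligands of several of these receptors. A time zero control named in the series text was not analysed here. Libraries carry an experiment number, but whether experiments were separate differentiations is not said in the labels, so the p-values measure the spread between these libraries.

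GDNF-family ligands bind a GFRα co-receptor, anchored to the membrane by a lipid, and the pair then engages the tyrosine kinase RET. GFRα1 prefers GDNF, GFRα2 prefers neurturin and GFRα3 prefers artemin. Neurotrophins act through the Trk kinases, TrkB (Ntrk2) for BDNF and TrkC (Ntrk3) for NT-3, and through the shared receptor encoded by Ngfr, which belongs to the death-receptor family and can support survival or death. Neuregulin-1 (Nrg1) is made by motor neurons, acts on ErbB receptors of Schwann cells, muscle and neurons, and is freed from the membrane by proteases; ErbB4 is a neuregulin receptor with a kinase of its own. Motor neurons depend on such factors for survival during development, and ERBB4 is one of the genes mutated in familial ALS.

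The upstream sequences of Ngfr and Erbb4, which fell and rose furthest with time among the genes with an entry, and of the co-receptor Gfra1, which differed between media, are shown first. RefSeq promoter windows on GRCm38.p6 matched 4 of the 9 genes, Erbb4, Ngfr, Ntrk2 and Gfra1; Ret, Gfra2, Gfra3, Ntrk3 and Nrg1 had no entry. Each sequence runs 5′ to 3′ on the gene's strand and is the longest stretch of its 250-base window outside any annotated exon. For Gfra1 this is the 62 bases next to the start, which follow bases in an annotated exon. They lie at chr11:95587736-95587948 on the minus strand (Ngfr, 213 bases), chr1:69108060-69108309 on the minus strand (Erbb4, 250 bases) and chr19:58455399-58455460 on the minus strand (Gfra1, 62 bases). Capitals mark matches to the GC box GGGCGG, the STAT site TTCNNNGAA or the cAMP response element core TGACG on either strand.
Ngfr: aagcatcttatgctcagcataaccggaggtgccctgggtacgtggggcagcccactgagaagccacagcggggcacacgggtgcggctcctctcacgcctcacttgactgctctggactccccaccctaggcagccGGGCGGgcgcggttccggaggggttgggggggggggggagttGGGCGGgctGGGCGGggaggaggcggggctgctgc
Erbb4: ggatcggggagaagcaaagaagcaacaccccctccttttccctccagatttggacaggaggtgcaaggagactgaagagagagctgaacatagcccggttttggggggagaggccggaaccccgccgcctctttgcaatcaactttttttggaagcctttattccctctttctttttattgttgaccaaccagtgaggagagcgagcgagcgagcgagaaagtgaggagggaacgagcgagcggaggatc
Gfra1: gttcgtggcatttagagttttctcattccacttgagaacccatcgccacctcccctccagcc
The Ngfr run is 70.9% G or C and carried no STAT site or cAMP response element core; its whole 250-base window held 4 GC boxes, of which 3 lie in the run printed. The Erbb4 run is 54% G or C, close to the median of 52.4% over all promoter windows, and held none of the motifs searched. The Gfra1 window held no GC box, STAT site or cAMP response element core. Of 32851 windows of 250 bases, 32.7% held GGGCGG, 7.02% held TTCNNNGAA and 17.8% held TGACG. The homeodomain core TAATTA was in none of the 4 genes and in 4.84% of all windows. The E-box CANNTG was found 3 times for Gfra1, 2 times for Ngfr, once for Ntrk2 and not for Erbb4, against 66.2% of all windows. E-boxes are not marked in the runs, of which those of Ngfr and Gfra1 hold 1 each.

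Libraries held 4.39 to 88.9 M reads (median 13.3 M), and levels are given as CPM, each gene's reads per 1 M reads of the library, on library sizes scaled by TMM. All 9 genes passed the filter on low counts. The smallest library, NTg replicate 6 of day 1, also held the highest summed level of Schwann cell and neural crest markers (106 CPM, against a group median of 9.89) and of microglia markers (40.8 CPM, median 5.85). The largest was wtSOD1 replicate 4 of day 1. All 8 motor neuron markers were detected on both days, with a summed level of 1441 to 1852 CPM on day 1 and 535 to 1082 CPM on day 3. The cultures were not pure: progenitor and dividing-cell markers summed to 871 to 1239 CPM on day 1 and 1639 to 2444 CPM on day 3. In such bulk samples, fewer cells of a type and less RNA per cell cannot be told apart.

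Per kilobase of annotated exon, a rough scale for comparing genes, Ngfr and Ret led in NTg medium on day 1 with 85.8 and 62.8 CPM per kb. Gfra1 followed at 21.1 and Nrg1 at 14.8 CPM per kb. Ntrk2 (3.33), Gfra2 (2.43), Ntrk3 (1.52) and Erbb4 (1.34 CPM per kb) were lower, and Gfra3 was close to the detection limit at 0.328 CPM per kb. By day 3 in NTg medium, Ret led at 28.4 CPM per kb, with Gfra1 at 25.3, Ngfr at 19.5 and Nrg1 at 11.7 CPM per kb. The lengths are the exon unions of a different annotation from the one the authors counted on. They pool all isoforms, with 30170 bases for Ntrk3, 19292 for Ntrk2 and 12355 for Erbb4, against 3446 for Ngfr and 3539 for Gfra2. In plain CPM, Ntrk3 (45.9) and Erbb4 (16.6) stood above Gfra2 (8.61) in NTg medium on day 1. The order of the lower genes thus depends on these lengths.

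**Figure D1:**
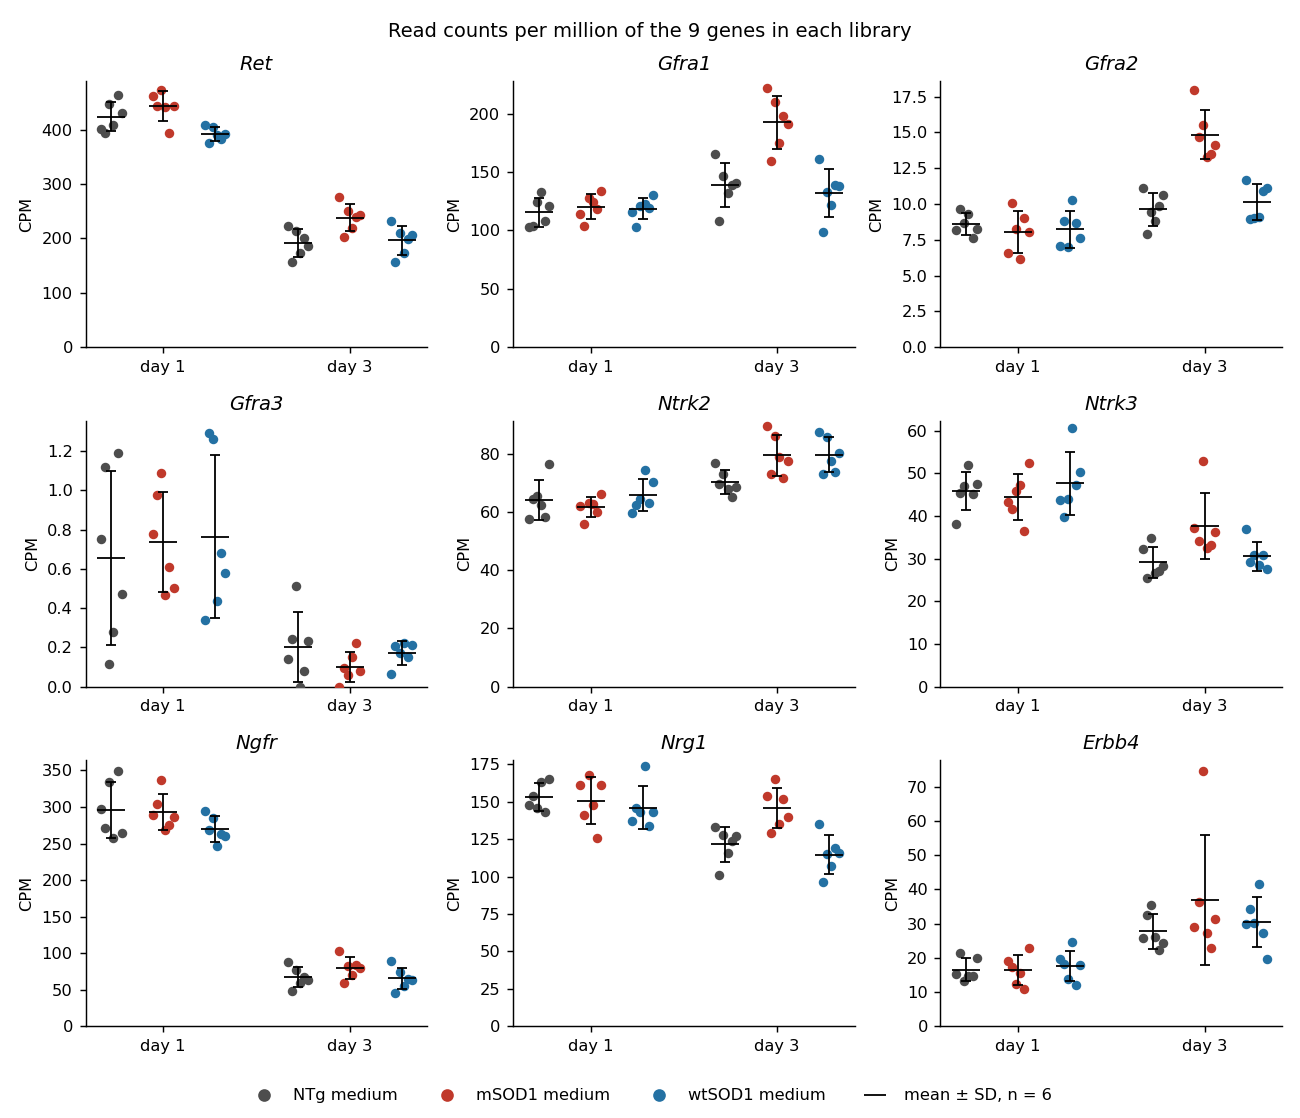
Level in CPM (y axis, linear from 0) of each of the 9 genes in the 36 libraries, by day and medium; points are libraries and bars the mean ± SD of 6. Ret and Ngfr drop from day 1 to day 3 with no overlap between days, and on day 3 the 6 mSOD1 libraries of Gfra2 (13.3 to 18 CPM) lie above all others.

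The first question was how the genes moved between day 1 and day 3 within each medium, a period in which the cultures also changed in make-up. Gfra3 is described by its reads only, because it passed the filter on low counts through day 1 libraries alone. Of the other 8 genes, 3 rose and 4 fell in NTg medium; over all 15204 genes tested, 61.5% passed in this comparison, 30.8% as higher and 30.8% as lower. In wtSOD1 medium 3 rose and 4 fell, where 61.8% of all genes passed, 31.1% as higher and 30.7% as lower. In mSOD1 medium 4 rose and 2 fell, where 56.5% passed, 28.4% as higher and 28% as lower. The 2 days did not overlap for 5 of the 8 genes in NTg, 6 in mSOD1 and 3 in wtSOD1 medium, against 38.4%, 32% and 38.3% of all genes. The median log2 difference of the 8 genes was -0.09, -0.10 and 0.16 in NTg, wtSOD1 and mSOD1 medium, against -0.00, -0.01 and -0.01 over all genes.

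Ngfr, the shared neurotrophin receptor, fell furthest among the well-expressed genes. In NTg medium it went from 257, 284 and 349 CPM (lowest, median and highest library) on day 1 to 48.3, 65.3 and 87.8 CPM on day 3. In mSOD1 medium the lowest, median and highest libraries went from 268, 288 and 337 CPM to 59, 80.9 and 103 CPM, and in wtSOD1 medium from 246, 266 and 295 CPM to 46, 64.2 and 88.6 CPM. No day 3 library reached a day 1 library in any medium. The drop was 4.38-fold in NTg medium (log2 -2.13 ± 0.13 SE, edgeR adjusted p = 1.34e-15), 3.69-fold in mSOD1 medium and 4.14-fold in wtSOD1 medium.

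Ret, the signalling kinase of the GDNF receptor, fell in every medium too. Its lowest, median and highest libraries were 395, 420 and 464 CPM on day 1 in NTg medium and 156, 193 and 223 CPM on day 3. The same 3 values went from 394, 444 and 474 to 203, 242 and 276 CPM in mSOD1 medium, and from 375, 391 and 409 to 157, 203 and 233 CPM in wtSOD1 medium. The days did not overlap in any medium. The log2 difference was -1.14 ± 0.08 in NTg, -0.89 ± 0.08 in mSOD1 and -1.0 ± 0.08 in wtSOD1 medium (edgeR adjusted p of 2.36e-12 or lower in each).

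Gfra1, the GDNF co-receptor, rose in NTg and mSOD1 medium, where Ret fell. In NTg medium it went from 115 ± 12 to 139 ± 19 CPM (SD, n = 6), in mSOD1 medium from 120 ± 10.9 to 193 ± 22.9 CPM and in wtSOD1 medium from 119 ± 9.17 to 132 ± 20.6 CPM. The days overlapped in NTg and wtSOD1 medium and were apart in mSOD1 medium. The rise passed in mSOD1 medium (log2 0.68 ± 0.09, edgeR adjusted p = 1.44e-07) and in NTg medium (0.27 ± 0.09, adjusted p = 0.0131). In wtSOD1 medium the log2 difference was 0.15 ± 0.09 (edgeR adjusted p = 0.155), and it passed with the experiment number as a block (adjusted p = 0.0445). In NTg medium the call was lost without experiment 1 (log2 0.18, edgeR adjusted p = 0.0914) or experiment 5 (0.25, adjusted p = 0.0583).

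Gfra2, the neurturin co-receptor, rose from 8.03 ± 1.48 to 14.9 ± 1.72 CPM (SD, n = 6) in mSOD1 medium. That is a log2 difference of 0.88 ± 0.11 (edgeR adjusted p = 1.84e-08), with no overlap between days. In wtSOD1 medium it was 8.23 ± 1.27 and 10.1 ± 1.24 CPM (SD, n = 6), a rise of log2 0.28 ± 0.11 (edgeR adjusted p = 0.0285), which failed without experiment 1, 3, 5 or 6; the value was 0.18 without experiment 1 (edgeR adjusted p = 0.168). In NTg medium its values were 8.61 ± 0.752 and 9.62 ± 1.17 CPM (SD, n = 6), and the log2 difference of 0.16 ± 0.11 did not pass (edgeR adjusted p = 0.211). Gfra3, the artemin co-receptor, had at most 36 reads in any library. Its day 3 groups held 22 (NTg), 8 (mSOD1) and 16 (wtSOD1) reads in all, against 61, 57 and 95 on day 1. None of the 18 day 3 libraries, and 8 of the 18 day 1 libraries, reached the filter's minimum of 0.753 CPM for Gfra3, so its difference between days was not read as a result.

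The 2 Trk receptors moved in opposite directions in NTg and wtSOD1 medium. Ntrk3 fell from 45.9 ± 4.48 to 29.1 ± 3.68 CPM (SD, n = 6) in NTg medium and from 47.6 ± 7.3 to 30.6 ± 3.38 CPM in wtSOD1 medium, with the days apart in both. The log2 differences were -0.64 ± 0.11 and -0.65 ± 0.11 (edgeR adjusted p = 3.31e-06 and 2.28e-06). In mSOD1 medium Ntrk3 was at 44.5 ± 5.46 and 37.7 ± 7.64 CPM (SD, n = 6), a log2 difference of -0.24 ± 0.11 that did not pass (edgeR adjusted p = 0.0614). It passed with the experiment block (edgeR adjusted p = 0.0449) and without experiment 3 (-0.35, edgeR adjusted p = 0.00482). Ntrk2, the BDNF receptor, rose a little in every medium, by log2 0.15 ± 0.06 in NTg, 0.37 ± 0.06 in mSOD1 and 0.27 ± 0.06 in wtSOD1 medium (edgeR adjusted p = 0.0427, 6.17e-06 and 0.000251). Only in mSOD1 medium were its days apart, at 55.9 to 66.3 and 71.6 to 89.8 CPM; the NTg call was lost without any one of experiments 1 to 5, and the difference was 0.09 without experiment 1 (edgeR adjusted p = 0.214).

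Nrg1 fell from 153 ± 8.94 to 122 ± 11.6 CPM (SD, n = 6) in NTg medium and from 146 ± 14.2 to 115 ± 13 CPM in wtSOD1 medium. In mSOD1 medium it was at 151 ± 15.5 CPM on day 1 and 146 ± 13.6 CPM on day 3 (SD, n = 6). The log2 differences were -0.33 ± 0.08 (edgeR adjusted p = 0.00028), -0.35 ± 0.07 (9.15e-05) and -0.05 ± 0.07 (0.617), the last with a 95% interval from -0.20 to 0.11. Erbb4, a receptor for neuregulin, rose by log2 0.76 ± 0.24 in NTg, 1.17 ± 0.23 in mSOD1 and 0.75 ± 0.23 in wtSOD1 medium (edgeR adjusted p = 0.006, 7.35e-05 and 0.00483). Its lowest, median and highest libraries in NTg medium were 13.3, 15.1 and 21.4 CPM on day 1 and 22.2, 25.9 and 35.4 CPM on day 3, with no overlap. In mSOD1 medium the rise without experiment 3, whose day 3 library stood at 74.6 CPM, was log2 0.75 ± 0.19 (edgeR adjusted p = 0.00144), against 0.62 ± 0.19 in NTg and 0.69 ± 0.18 in wtSOD1 medium.

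Over the same 2 days, marker lists for the cell types moved too. All 8 motor neuron markers fell in each medium (median log2 -1.47 in NTg, -1.27 in mSOD1 and -1.51 in wtSOD1), and interneuron markers fell in 10, 9 and 10 of 10. Of 8 astrocyte markers 6 rose and 1 fell in each medium, all 7 tested mesenchyme markers rose, and 8 of 10 progenitor and dividing-cell markers rose. Gfap itself stayed low, at no more than 3.47 CPM in any library and without a read in 12. It reached the filter's minimum in 1 of 18 day 1 and 5 of 18 day 3 libraries, and Aqp4 in 2 and 18. Both are among the 6 astrocyte markers that rose in NTg medium, and their rises were not read as results. Other non-neuronal lists did not rise as a whole. In NTg medium, 2 of 8 oligodendrocyte lineage markers rose and 2 fell. Of 6 Schwann cell and neural crest markers 2 rose and 2 fell, and of 3 microglia markers 0 rose and 1 fell. The falls of Ret and Ngfr and the rise of Erbb4 ran beside lower motor neuron and interneuron markers and higher astrocyte, mesenchyme and progenitor markers. The part of these markers in them was not tested.

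**Figure D2:**
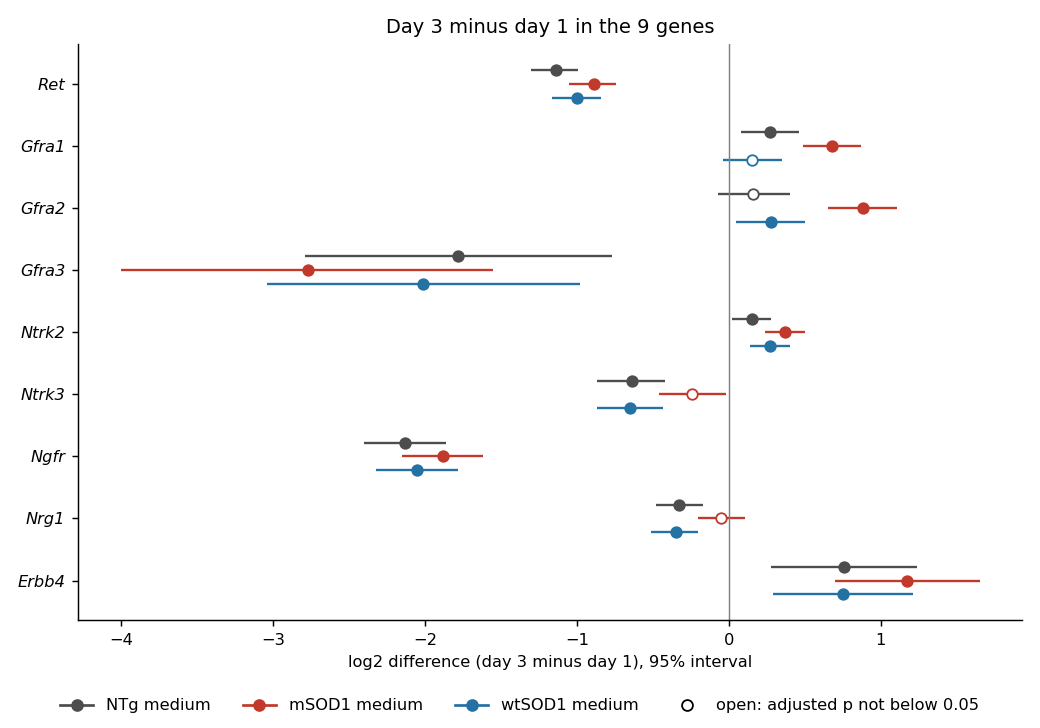
Log2 difference between day 3 and day 1 (x axis, day 3 minus day 1) for each gene in the 3 media, with 95% intervals; filled points passed at an adjusted p below 0.05. Ngfr and Ret lie to the left of 0 and Erbb4 to the right in all 3 media. Gfra1 and Gfra2 lie further right in mSOD1 medium than in the other media. The points of Gfra3, also left of 0, rest on few reads and were not read as a result.

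The main comparison asked whether medium from mutant astrocytes changed these genes. On day 1 no difference passed. None of the 9 passed for mSOD1 against NTg (0.421% of all genes passed), for wtSOD1 against NTg (0.0263%) or for mSOD1 against wtSOD1 (1.01%) in edgeR's quasi-likelihood test. At an unadjusted p below 0.05 the counts were 0, 0 and 1 of 9, against 1057, 868 and 1693 of the 15204 genes. DESeq2 also passed 0 of 9 in each. The log2 differences ran from -0.09 to 0.08, from -0.14 to 0.15 and from -0.14 to 0.17. The one gene below 0.05 unadjusted was Ret, at 443 ± 27.5 CPM in mSOD1 and 393 ± 12.9 CPM in wtSOD1 medium (SD, n = 6). Its log2 difference was 0.17 (95% interval 0.02 to 0.33), and it passed with the experiment as a block within each day (edgeR adjusted p = 0.0016).

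On day 3, Ret, Gfra1, Gfra2 and Nrg1 were higher in mSOD1 than in NTg medium, 4 of 9 genes where 2.94% of all genes passed and 2.24% passed as higher. The same 4 were higher in mSOD1 than in wtSOD1 medium, where 3.37% of all genes passed and 2.48% passed as higher. The 2 comparisons share the mSOD1 libraries and so are not independent. No gene fell in either. The median log2 difference of the 9 genes was 0.31 against NTg and 0.29 against wtSOD1 medium, against -0.01 and -0.00 over all genes. Between wtSOD1 and NTg medium on day 3 none of the 9 passed (0.0987% of all genes did). There, 1 of 9 was below 0.05 unadjusted in edgeR and 0 passed in DESeq2.

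Among the genes that passed, Gfra2 gave the largest difference from NTg medium. Its lowest, median and highest libraries on day 3 were 7.91, 9.65 and 11.1 CPM in NTg, 13.3, 14.4 and 18 CPM in mSOD1 and 8.94, 9.98 and 11.7 CPM in wtSOD1 medium. Every mSOD1 library was above every library of the other 2 media. Groups of all genes were apart like this in 2.2% (NTg) and 1.97% (wtSOD1) of genes. The level was 1.53-fold that in NTg medium (log2 0.62 ± 0.11, edgeR adjusted p = 0.00146) and 1.47-fold that in wtSOD1 medium (0.56 ± 0.11, adjusted p = 0.00185). Both calls held under all 14 alternatives, at adjusted p-values no higher than 0.0338 and 0.0325. Ranked by p-value, Gfra2 was number 13 of the 15204 genes against NTg medium.

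Gfra1 came second. On day 3 its lowest, median and highest libraries were 108, 140 and 166 CPM in NTg, 160, 195 and 222 CPM in mSOD1 and 98.9, 136 and 161 CPM in wtSOD1 medium. Only the lowest mSOD1 library overlapped the highest of the other media. Within experiments, the mSOD1 library was 1.33 to 1.48 times the NTg library and 1.38 to 1.61 times the wtSOD1 library, in 6 of 6 experiments each. The log2 differences were 0.47 ± 0.09 against NTg (edgeR adjusted p = 0.00487) and 0.55 ± 0.09 against wtSOD1 medium (0.000481). The call against NTg was lost without experiment 3 (0.46, edgeR adjusted p = 0.0593); that against wtSOD1 held under all 14 alternatives.

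Ret, the partner of both co-receptors, was at 156, 193 and 223 CPM in NTg, 203, 242 and 276 CPM in mSOD1 and 157, 203 and 233 CPM in wtSOD1 medium (lowest, median and highest library). The groups overlapped, yet in each of the 6 experiments the mSOD1 library was the highest of the 3. The within-experiment ratio to NTg was 1.17 to 1.32. The log2 differences of 0.31 ± 0.08 against NTg (edgeR adjusted p = 0.0228) and 0.28 ± 0.08 against wtSOD1 (0.032) kept their size but not their call without experiment 3, 4, 5 or 6. The values without these ranged from 0.30 to 0.33 against NTg (edgeR adjusted p from 0.0547 to 0.132) and from 0.27 to 0.29 against wtSOD1 (0.0897 to 0.131). Both Ret calls held with the experiment as a block, over all libraries or within each day.

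Nrg1 was at 101, 125 and 133 CPM in NTg, 129, 146 and 165 CPM in mSOD1 and 96.1, 115 and 135 CPM in wtSOD1 medium (lowest, median and highest library). Here too the groups overlapped and the mSOD1 library was the highest in each of the 6 experiments. The difference was log2 0.35 ± 0.08 against wtSOD1 (edgeR adjusted p = 0.00495) and 0.26 ± 0.07 against NTg medium (0.0457). The second call is marginal. It was lost when any one experiment was left out (edgeR adjusted p from 0.0547 without experiment 1 to 0.206 without experiment 3) and without the low-count filter (0.0617). Against wtSOD1 it was lost without experiment 3 (0.31, edgeR adjusted p = 0.0596). Both Nrg1 calls held with the experiment as a block, over all libraries or within each day.

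**Figure D3:**
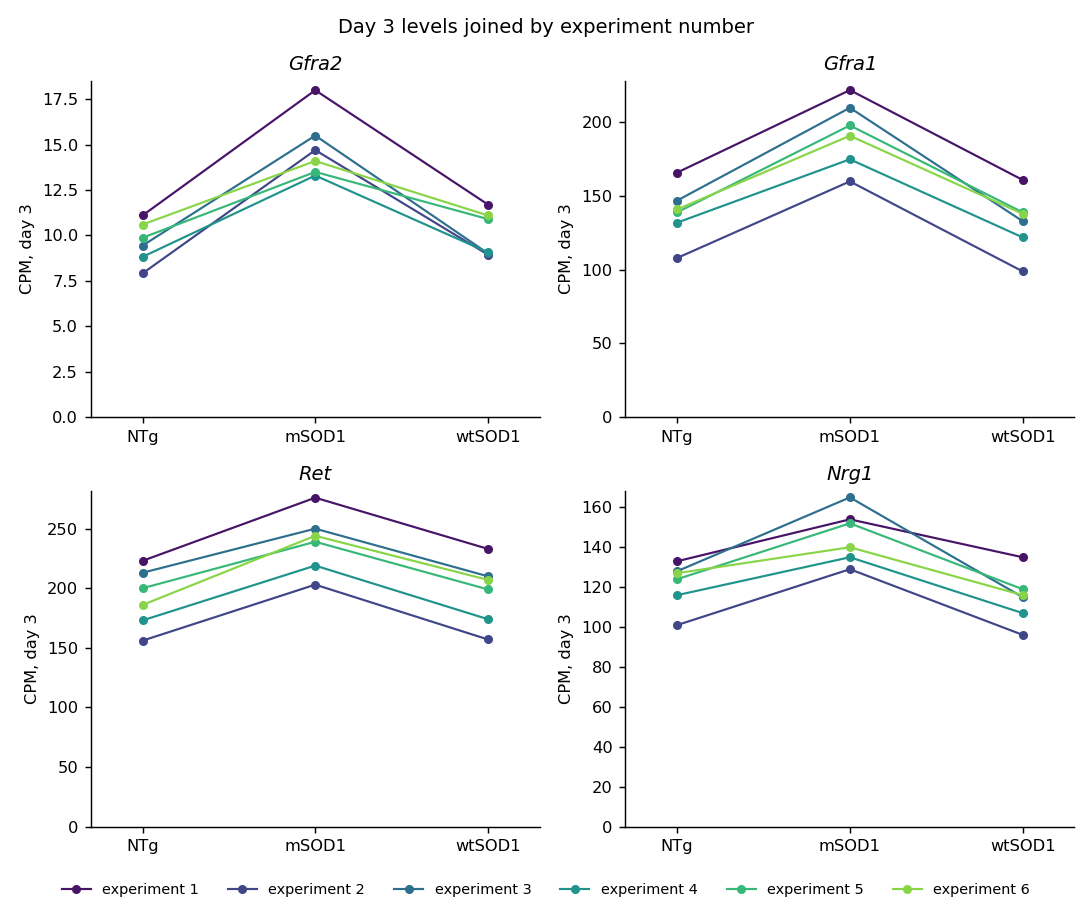
Day 3 levels in CPM (y axis, linear from 0) of Gfra2, Gfra1, Ret and Nrg1 in the 3 media; each line joins the 3 libraries of 1 experiment. Every line peaks at mSOD1 medium, and experiment 2 is the lowest line for Gfra1, Ret and Nrg1.

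The neurotrophin receptors and Erbb4 did not pass on day 3. Ntrk3 came closest, at 29.1 ± 3.68 CPM in NTg, 37.7 ± 7.64 CPM in mSOD1 and 30.6 ± 3.38 CPM in wtSOD1 medium (SD, n = 6). Its difference from NTg was log2 0.37 ± 0.11 (edgeR adjusted p = 0.0514), past the threshold with the experiment block (0.0227) and in DESeq2 (0.0211) but 0.30 with an adjusted p of 0.202 without experiment 3, whose mSOD1 library stood at 52.8 CPM. Against wtSOD1 it was 0.31 ± 0.11 (edgeR adjusted p = 0.109), and 0.18 without experiment 3 (0.477). Ngfr was 59, 80.9 and 103 CPM in mSOD1 medium (lowest, median and highest library), overlapping the other media. Its log2 differences were 0.24 ± 0.13 against NTg (edgeR adjusted p = 0.327) and 0.29 ± 0.13 against wtSOD1 medium (0.225, or 0.0432 with the experiment block). With the experiment as a block within each day, Ngfr passed against both (edgeR adjusted p = 0.000205 for NTg and 2.02e-05 for wtSOD1), as did Ntrk3 (0.000255 and 0.00416).

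For Ntrk2, both SOD1 media lay above NTg medium. Its lowest, median and highest day 3 libraries were 65.3, 69.2 and 76.9 CPM in NTg, 71.6, 78.2 and 89.8 CPM in mSOD1 and 73.1, 79 and 87.6 CPM in wtSOD1 medium. The 2 SOD1 groups overlapped NTg medium but exceeded it in 6 of 6 experiments, each by log2 0.18 ± 0.06, and mSOD1 and wtSOD1 differed by -0.00 ± 0.06 (95% interval -0.13 to 0.13). Neither difference from NTg passed (edgeR adjusted p = 0.111 for mSOD1 and 0.999 for wtSOD1). With the experiment block the mSOD1 difference passed (0.0362), and with the block within each day both did (0.00158 for mSOD1 and 0.0241 for wtSOD1). For wtSOD1, Ntrk2 ranked number 71 of all genes by p-value, in a comparison where few genes passed.

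Erbb4 was at 22.2, 25.9 and 35.4 CPM in NTg, 22.9, 30.1 and 74.6 CPM in mSOD1 and 19.7, 30 and 41.6 CPM in wtSOD1 medium (lowest, median and highest library). The groups overlapped widely and 1 mSOD1 library, from experiment 3, stood apart. The log2 difference from NTg was 0.42 ± 0.22 (edgeR adjusted p = 0.296) with it and 0.16 ± 0.18 (0.763) without experiment 3. Against wtSOD1 medium it was 0.28 ± 0.22 (edgeR adjusted p = 0.541) and -0.07 ± 0.18 (0.925) without experiment 3. Gfra3, with 8 to 22 reads per group, gave log2 -0.92 against NTg with a 95% interval from -2.38 to 0.54, so no difference was detectable at this depth.

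**Figure D4:**
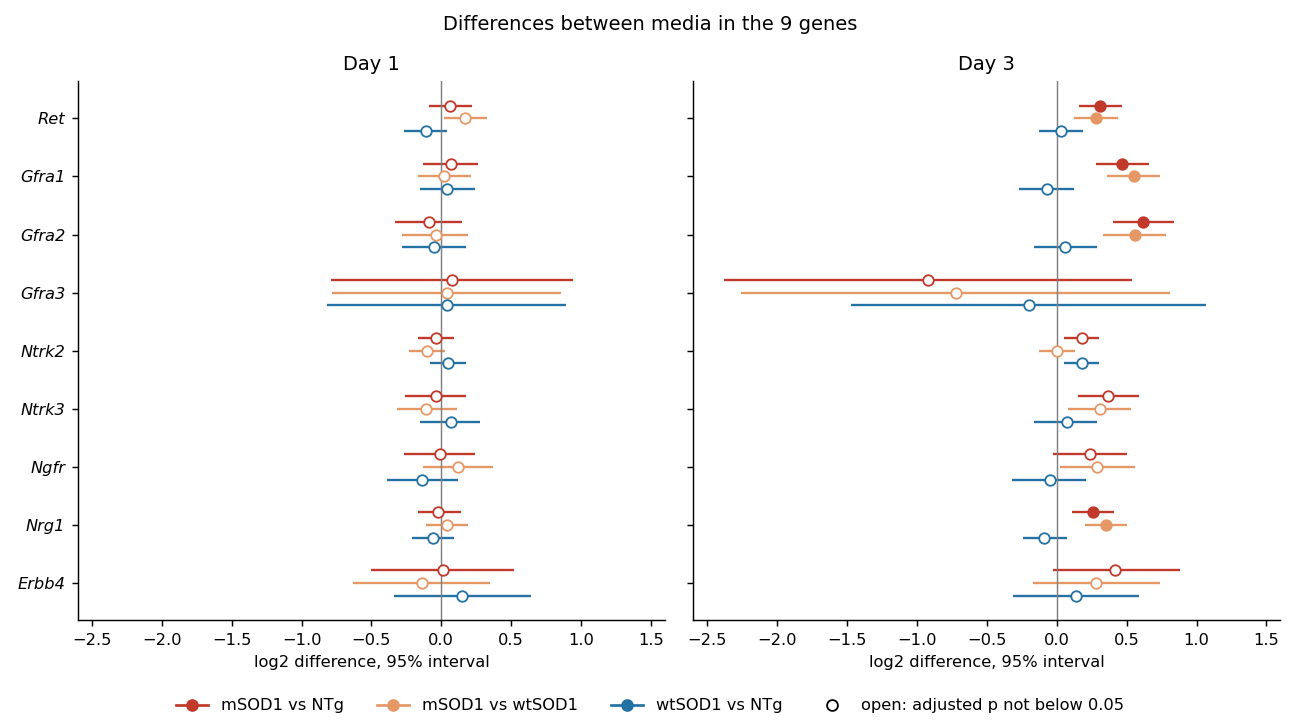
Log2 differences between media (x axis, first named minus second) for each gene on day 1 (left) and day 3 (right), with 95% intervals; filled points passed at an adjusted p below 0.05. On day 1 no point is filled, and on day 3 the filled points are Ret, Gfra1, Gfra2 and Nrg1 for mSOD1 medium against both others.

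Whether the medium's effect differed between days was tested as an interaction. Against NTg medium 1 of 9 genes passed, Gfra2 (0.23% of all genes passed), with a difference of log2 0.71 ± 0.16 (edgeR adjusted p = 0.0357). It was lost when any one experiment was left out (0.64 to 0.82, edgeR adjusted p from 0.0569 to 0.184). Gfra1 gave log2 0.41 ± 0.13 (edgeR adjusted p = 0.181, or 0.0124 with the experiment block). Against wtSOD1 medium none of the 9 passed in edgeR (0.592% of all genes did). There, 4 were below 0.05 unadjusted, as were 2293 of the 15204 genes, and DESeq2 passed 2, against 233 of all genes. Those 2 were Gfra1, at 0.53 ± 0.13 (edgeR adjusted p = 0.0522, DESeq2 0.0125, experiment block 0.00101), and Gfra2, at 0.60 ± 0.16 (edgeR 0.0613, DESeq2 0.0302, block 0.03). For Nrg1 the interaction was 0.28 ± 0.11 against NTg and 0.31 ± 0.11 against wtSOD1 (edgeR adjusted p = 0.229 and 0.146). With the experiment as a block within each day, both Nrg1 interactions passed (edgeR adjusted p = 0.0037 and 0.00179). That block passed 7 of 9 genes against NTg medium, adding Ret, Gfra1, Ntrk2, Ntrk3, Ngfr and Nrg1 to Gfra2, and 4 of 9 against wtSOD1 medium, namely Gfra1, Gfra2, Ntrk3 and Nrg1. It also raised the number of all genes passing, from 35 to 1680 and from 90 to 1651 of 15204. Between wtSOD1 and NTg medium 0 of 9 passed in edgeR or DESeq2 (0.0197% of all genes passed in edgeR). There, 0 of 9 were below 0.05 unadjusted, against 432 of all genes.

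Marker lists moved with mSOD1 medium on day 3 as well. None of the 8 motor neuron markers passed against NTg medium in edgeR or DESeq2 (3 below 0.05 unadjusted; median log2 0.18), and their summed level was 631 to 1043 CPM in NTg and 767 to 1082 CPM in mSOD1 medium. Against wtSOD1 medium (535 to 918 CPM), 1 of 8 passed, the neuronal filament gene Prph (0.41 ± 0.11, edgeR adjusted p = 0.0343), and DESeq2 passed 3. Lower in mSOD1 than in NTg medium were 2 of 7 mesenchyme markers, Col1a2 and Dcn, 2 of 10 progenitor and dividing-cell markers, Mcm2 and Mcm5, and 1 of 6 Schwann cell and neural crest markers, Tcfap2b. DESeq2 passed 2, 3 and 0 of these lists, and 2.94% of all genes passed in edgeR. Against wtSOD1 medium, 0 of 7, 2 of 10 and 1 of 6 were lower (DESeq2 passed 0, 3 and 1), where 3.37% of all genes passed in edgeR. The mesenchyme markers summed to 210 to 283 CPM in NTg and 154 to 240 CPM in mSOD1 medium, and the progenitor markers to 1868 to 2395 and 1639 to 2099 CPM. Astrocyte markers summed to 464 to 641 and 433 to 574 CPM, with 0 of 8 passed in edgeR or DESeq2 and 0 below 0.05 unadjusted. The part of these shifts in the higher Ret, Gfra1, Gfra2 and Nrg1 was not tested.

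Libraries of the same experiment shared part of their level on day 3. There, experiment 2 gave the lowest library in 16 of the 27 combinations of gene and medium, and it was lowest in all 3 media for Ret, Gfra1, Ngfr and Nrg1. Experiment 1 was highest in all 3 media for Ret, Gfra1, Gfra2, Ngfr and Ntrk2. On day 1 the lowest libraries were spread over experiments 1 to 5, with 3 to 8 of the 27 combinations each.

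Other genes of the pathways were counted beside the 2.94% (NTg) and 3.37% (wtSOD1) of all genes that passed for mSOD1 medium on day 3. Without adjustment, 2942 and 2831 of the 15204 genes were below 0.05. Of 18 tested ligands and other receptors of the 3 families, 0 passed on day 3 against NTg or wtSOD1 medium in edgeR. There, 7 and 3 were below 0.05 unadjusted, and DESeq2 passed 1 in each. The proteases that free neuregulin and cut its receptors gave 0 of 9 (3 and 4 unadjusted; DESeq2 0 and 1). Spry2, a feedback inhibitor of receptor tyrosine kinases, was higher in mSOD1 medium, at 31.6 ± 2.79 CPM against 24.8 ± 2.14 CPM in NTg and 24.7 ± 2.35 CPM in wtSOD1 medium (SD, n = 6). Its log2 differences were 0.34 ± 0.08 (edgeR adjusted p = 0.0165) and 0.36 ± 0.08 (0.00671). It was the 1 of 18 inhibitors to pass against NTg (8 unadjusted; DESeq2 2) and 1 of 2 against wtSOD1 (9 unadjusted; DESeq2 4); the other was Lrig2, a membrane protein that acts on receptor tyrosine kinases (0.21 ± 0.06, adjusted p = 0.0428). Of 37 adaptors and kinases, 0 passed against NTg (13 unadjusted; DESeq2 4) and 1 against wtSOD1, Grb2, which links receptors to Ras (0.21 ± 0.05, edgeR adjusted p = 0.026; 9 of 37 unadjusted, DESeq2 3).

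Genes known to be induced by these receptors did not pass on day 3 against NTg (0 of 13 in edgeR and DESeq2, 0 unadjusted) or wtSOD1 medium (0 of 13; 3 unadjusted, DESeq2 1). On day 1, Fos, an immediate-early gene, was the 1 of 13 that passed between mSOD1 and wtSOD1 medium. It stood at 41.9 ± 5.63 CPM in mSOD1 and 69.6 ± 14.6 CPM in wtSOD1 medium (SD, n = 6), with NTg between them at 50.9 ± 6.25 CPM. The log2 difference was -0.73 ± 0.10 (edgeR adjusted p = 1.24e-05). On day 3 Fos was at 25 ± 2.81 and 24.7 ± 1.4 CPM (SD, n = 6), and the change of the difference between days passed (0.74 ± 0.15, edgeR adjusted p = 0.0102).

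Between day 1 and day 3 many pathway genes moved, in both directions; counts are given for NTg, mSOD1 and wtSOD1 medium in turn. Of 18 ligands and other receptors, 6, 7 and 6 rose and 6, 3 and 5 fell. Among those that rose in NTg medium were Egfr (log2 1.87 ± 0.08), the artemin gene Artn (3.13 ± 0.27, from 0.683 to 6.33 CPM), Erbb2, the co-receptor of ErbB4 (0.94 ± 0.09), and Bdnf, the TrkB ligand (0.84 ± 0.11). Artn reached the filter's minimum in 9 of 18 day 1 and 18 of 18 day 3 libraries, and its rise was not read as a result. Of 37 adaptors and kinases, 3, 5 and 3 rose and 20, 19 and 20 fell. The neuronal adaptor Shc2 (-0.91 ± 0.08) and the kinase Mapk7 (-0.58 ± 0.05) fell in NTg medium, and Shc1, a more widely expressed relative, rose (1.23 ± 0.10).

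Of 9 proteases, 4 rose in each medium and 4, 3 and 3 fell. Adam17 (0.87 ± 0.07) and the γ-secretase subunit Aph1a (0.39 ± 0.06) rose, and Adam19 (-0.79 ± 0.08) fell in NTg medium. Of 18 inhibitors, 6, 8 and 6 rose and 7, 5 and 7 fell. The phosphatases Dusp4 (-1.51 ± 0.09) and Ptpn1 (-0.75 ± 0.06) and the Ras inhibitor Spred3 (-0.71 ± 0.07) fell in NTg medium; Ptpn11, a phosphatase that more often promotes Ras signalling, rose (0.41 ± 0.04). Of 13 induced genes, 4, 3 and 3 rose and 7, 7 and 8 fell. Fos (-1.11 ± 0.10) and Junb (-1.53 ± 0.17) fell and Etv5 rose (0.74 ± 0.07). Th gave -3.18 ± 0.41 and is counted among those that fell. No day 3 library of Th reached the filter's minimum, so its difference was not read as a result. Each of the values named passed edgeR's test over all genes, as 61.5% of all genes did.

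The genes whose log2 CPM ran most like each receptor over the 36 libraries were found by Pearson's r. These libraries share day, medium and experiment, so r describes likeness only. For Ret they were Kif3c, Crmp1 and Rufy3 (0.99 each), and for Ngfr Islr2, Nell2 and Crmp1 (0.99 each). Gfra1 ran most like AW551984 (0.94), Glra2 and Cntn1 (0.92 each). Gfra2 ran most like Nek7 (0.86), Mdga1 (0.85) and Mfap3l (0.83). For Gfra3 the highest were Phf21b, C1ql1 and Rxrg (0.81 each). As Gfra3 passed the filter through day 1 libraries alone, on few reads, its likeness was not read as a result. Ntrk2 ran most like Fut9 and Grm5 (0.87 each) and Camk4 (0.85), and Ntrk3 like Sema6d and Exoc6b (0.96 each) and Camta1 (0.95). Nrg1 ran most like Nav1 (0.95), Lphn2 and Trim2 (0.93 each), and Erbb4 like Exoc4 (0.92), Nckap5 and Sorcs1 (0.91 each).

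After the group means were removed, other genes varied most like each receptor between experiments, apart from Crmp1, Camta1 and Nav1. For Ret these were the kinesin Kif5a (0.96), Dpysl5 (0.95) and Esyt1 (0.94). For Gfra1 they were Mtap9 (0.92), Ahi1 (0.91) and Slc5a7, the choline transporter of cholinergic neurons (0.90). For Ngfr they were the neuronal filament gene Ina, Mapk8ip2 and Crmp1 (0.95 each). For Nrg1 they were the axonal sodium channel Scn8a (0.93), Ank3 and Nav1 (0.92 each), and for Ntrk3 Dlg2 and Camta1 (0.88 each) and Grin2a (0.87). Ntrk2 varied most like Pak3 (0.83), Negr1 (0.82) and Unc5d (0.81), and Erbb4 like Prkg1 (0.83), Kcnip4 (0.81) and Nhs (0.80). Gfra2 gave lower values, with Nucb2 (0.69), 9030418K01Rik (0.66) and C530028O21Rik (0.65), as did Gfra3, with E2f6 (0.69), Scarf2 (0.61) and Il16 (0.56). The values of Gfra3 rest on its few reads and were not read as a result.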

How the data were processed

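The deposited files hold, for each of 36 libraries, whole-number read counts per gene that the authors made from their reads. TopHat 1.3.3, DESeq and mm9 are listed, without a role, in the submitters' processing notes. What counted the reads, on which annotation and with which strand setting: not given in the sources used here. The authors' second column of normalised values was not used. Counts of Ntrk2, Ntrk3 and Nrg1 cover all isoforms. In GENCODE M21 on GRCm38, exons of Gfra1 share 416 bases with the antisense gene Gm16277 and those of Nrg1 482 bases with Gm26578 on the opposite strand; their reads could not be told apart without strand.

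The 7 rows without a symbol held at most 0.000923% of a library's reads and were left out. No pair of libraries was identical. Depth was 4.39 to 88.9 M reads. Genes were filtered by group (filterByExpr), scaled by TMM and fitted with edgeR 4.0.16 (robust quasi-likelihood test, R 4.3.3) on 6 group means over 36 libraries with 30 residual degrees of freedom; p-values were adjusted by Benjamini-Hochberg over 15204 genes, at a threshold of 0.05. Folds are log2 with their SE; intervals are 95%. The fit was also run on simulated counts, drawn as independent libraries without a shared level within an experiment. The outcome is not reported here and is not used as support. Log2 CPM for likeness used a prior count of 2.

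The experiment number in the labels was read as pairing libraries. On day 3, deviations from the group means correlated in same-numbered pairs (mean r 0.24, 16 of 18 pairs over 0.1) more than in other pairs (-0.048); on day 1 the mean was 0.133 (11 of 18), against -0.026. Between same-numbered libraries of different days it was 0.0373 (9 of 54 pairs over 0.1); the block over all libraries also pairs across days. Alternatives were median-of-ratios size factors, DESeq2 1.42.0, no low-count filter, the experiment as a block over all libraries or within each day, leaving out either or both of the smallest and largest libraries, and leaving out each experiment.

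All 9 genes are named; from each of 5 pathway lists up to 4 passing genes by lowest p are named (for time, those of NTg medium; some are not reported here), and for each gene the 3 most correlated genes. Lists held 183 entries, all matched. The members, lists and tests were chosen with earlier results of these data known, and 10 marker lists are given by counts and summed levels.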

Additional observations from a re-analysis of the deposited data

Results flagged for a closer look

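In 54 combinations of gene and group, 4 had 1 library far from the other 5 (its gap to the nearest library, over the whole range, was above 0.625), where chance flags about 1 in 20. Ntrk3 reached 52.8 CPM in mSOD1 replicate 3 of day 3, the others lying at 32.5 to 37.2 CPM, and 37 CPM in wtSOD1 replicate 1 of day 3, the others at 27.5 to 30.9 CPM. Nrg1 reached 174 CPM in wtSOD1 replicate 4 of day 1, the largest library, with the others at 134 to 146 CPM. Erbb4 reached 74.6 CPM in mSOD1 replicate 3 of day 3, with the others at 22.9 to 36.2 CPM. The same library thus held the highest level of both Ntrk3 and Erbb4; the report gives the day 3 differences between media and the mSOD1 differences between days of both genes without experiment 3.

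The effect of mSOD1 against NTg medium differed between the days for Gfra2, by log2 0.71 on day 3 relative to day 1 in the interaction test (edgeR adjusted p = 0.0357). The call was lost when any one experiment was left out (edgeR adjusted p from 0.0569 to 0.184).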

How the results depend on the processing

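Over 14 alternatives, the 51 differences followed (those that passed in at least 1 fit) kept their direction, with 642 values on the same side of the threshold, 38 newly past it and 34 no longer past it; all 108 recomputed levels moved by less than 1 SD. The number of the 9 genes that passed moved as follows. With the experiment block, pairing libraries over all groups, 2 passed in the interaction with mSOD1 against NTg (main value 1) and 2 in that against wtSOD1 (0), where DESeq2 also gave 2; other blocked calls stand beside their results. With the replicate block within each day, 1 passed for mSOD1 against wtSOD1 on day 1 (Ret), 7 for mSOD1 and 1 for wtSOD1 against NTg on day 3, and 7 and 4 in the 2 interactions with mSOD1. For mSOD1 against NTg on day 3, 5 passed without the largest library (main value 4). Leaving out 1 experiment gave 1 to 3 genes for mSOD1 against NTg on day 3 and 2 to 4 against wtSOD1, lowest without experiment 3, and in the interactions 0 against NTg and 0 to 1 against wtSOD1.

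Counts over all genes moved by more than 1.5 times in 60 of the recomputed values; the cause was not tested. For mSOD1 against NTg on day 3, 447 became 1510 with the block, 2758 with it within days, 715 in DESeq2, 289 without the filter and 32 to 388 without 1 experiment (32 without experiment 3). Against wtSOD1 on day 3, 513 became 1419, 2367, 782 (DESeq2) and 162 to 658. For wtSOD1 against NTg on day 3, 15 became 57 with the block within days and 8 to 10 without 1 experiment. On day 1, 64 (mSOD1 against NTg) became 189 with the block within days; 4 (wtSOD1 against NTg) became 9, 56, 17 (DESeq2), 7 without the smallest library, 2 without the largest and 0 to 4; and 153 (mSOD1 against wtSOD1) became 234, 577, 84 without the largest library, 94 without both and 49 to 123. In the interactions, 35 (mSOD1 against NTg) became 406, 1680, 99 (DESeq2), 56 without the smallest library, 73 without both and 8 to 38; 90 (against wtSOD1) became 598, 1651, 233 (DESeq2), 31 without the largest library and 17 to 206; and 3 (wtSOD1 against NTg) became 19 within days, 1 without the largest library and 0 to 3. Depth limits Gfra3, for which 0 to 36 reads per library were counted.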
